A study of Homo sapiens with 6 samples.

Results

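The genes of respiratory complex I were followed in the human acute myeloid leukaemia line MV4-11, which carries the FLT3-ITD mutation, after exposure to 22d or to the vehicle DMSO. Members were taken by symbol: 51 of the 26364 genes in the table had a symbol starting with NDUF, and leaving out the pseudogene NDUFAF4P1 gave 50. Of these, 37 encode subunits of complex I and 7 encode assembly factors named NDUFAF. The others were 2 protein-coding genes that carry the name but lie outside complex I (NDUFA4 and NDUFA4L2), 3 antisense RNAs (NDUFA6-AS1, NDUFV2-AS1 and NDUFB2-AS1) and the readthrough gene NDUFC2-KCTD14.

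RNA was sequenced in 6 libraries, 3 from cells given 22d at 10 nM and 3 from cells given DMSO, both for 18 hours. 22d is known as an inhibitor of the histone deacetylase HDAC8. Both groups were the same cell line, and the comparison asks which transcripts differ between cells given the compound and cells given its vehicle. Whether the 3 libraries of a group are separate cultures is not in the labels, and the p-values below therefore reflect the variation among these libraries, possibly technical, and nothing wider.

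Complex I is the large L-shaped enzyme of the inner mitochondrial membrane that passes electrons from NADH to ubiquinone and pumps protons. Its hydrophilic arm holds the N module, which oxidises NADH, and the Q module, which reduces ubiquinone, and its membrane arm pumps. Core subunits do the chemistry, accessory subunits surround them, and assembly factors help to build the enzyme without remaining in it. Some core subunits are encoded in mitochondrial DNA and were not analysed here. Leukaemia cells of the myeloid lineage are known to lean on mitochondrial respiration.

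The libraries held between 20070076 and 23749257 reads in genes with 22d and between 19995430 and 23353064 with DMSO. Correlations of log2 values across genes were 0.985 to 0.993 within a group and 0.920 to 0.958 between groups. All 8 markers expected in these cells (CD33, LYZ, MPO, SPI1, FLT3, PTPRC, ITGAM and CSF1R) had at least 10 normalized counts in every library. Their sum was 38165 to 49109 with 22d and 63325 to 80948 with DMSO; without LYZ it was 26759 to 27496 with 22d and 23779 to 29253 with DMSO. PTPRC, FLT3, CSF1R and ITGAM were higher in every 22d library than in any DMSO library. LYZ and MPO were lower in every 22d library than in any DMSO library, and CD33 and SPI1 overlapped between groups. Of 11 markers of other cell types, 7 were under 10 in every library, MS4A1, CD3D and COL1A2 were among those at 0, and their sum was 882.5 to 1015.7 with 22d and 450.8 to 605.4 with DMSO. The part of these marker levels in the results was not tested.

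Most complex I genes were lower with 22d. Of the 37 subunits, 30 were lower, 1 was higher (NDUFB5) and 6 did not pass the test. Of the 7 NDUFAF assembly factors, 5 were lower, none was higher and 2 did not pass. The test was limma on log2(normalized count + 1), with p-values adjusted over the 13297 genes whose mean over the libraries reached 10 normalized counts, and a gene was called at an adjusted p under 0.05. All 50 members except NDUFC2-KCTD14, which had 0 reads in every library, passed this minimum. Over all genes tested, 29.6% were lower and 28.5% higher. The share of lower subunits, 81.1%, lay above the background and the share of higher ones below it. With scaling by library totals 25 subunits were lower and 2 higher, beside 20.8% lower and 39.7% higher among all genes, and after quantile normalization 27 were lower, beside 27.4%. In edgeR 30 were lower and 2 higher, beside 28.3% and 29.8%.

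The median log2 fold change was -0.69 over the subunits, with a range of -1.38 to 0.44, and -0.39 over the NDUFAF genes, with a range of -1.08 to 0.13. Over all genes tested the median was 0.01. Every 22d library lay below every DMSO library for 32 subunits and 5 NDUFAF genes, and above for 2 subunits. Among all genes these shares were 33.3% and 32.1%. A fall of at least 2-fold was called for 8 subunits and 2 NDUFAF genes, against 9.87% of all genes tested. The median fall was larger over the subunits than over these 7 NDUFAF genes, whose range lay within that of the subunits. The difference between the medians was not tested, and its size depended on the processing. After quantile normalization the medians were -0.50 over the subunits and -0.45 over the NDUFAF genes. Without 22d replicate 1 they were -0.62 and -0.47. The subunit median was the lower of the 2 in every setting. NDUFAF8 was not among the 7, because it was listed under its older symbol C17orf89. At -1.45 it lay below the range of the subunits, and including it would bring the medians closer.

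**Figure D1:**
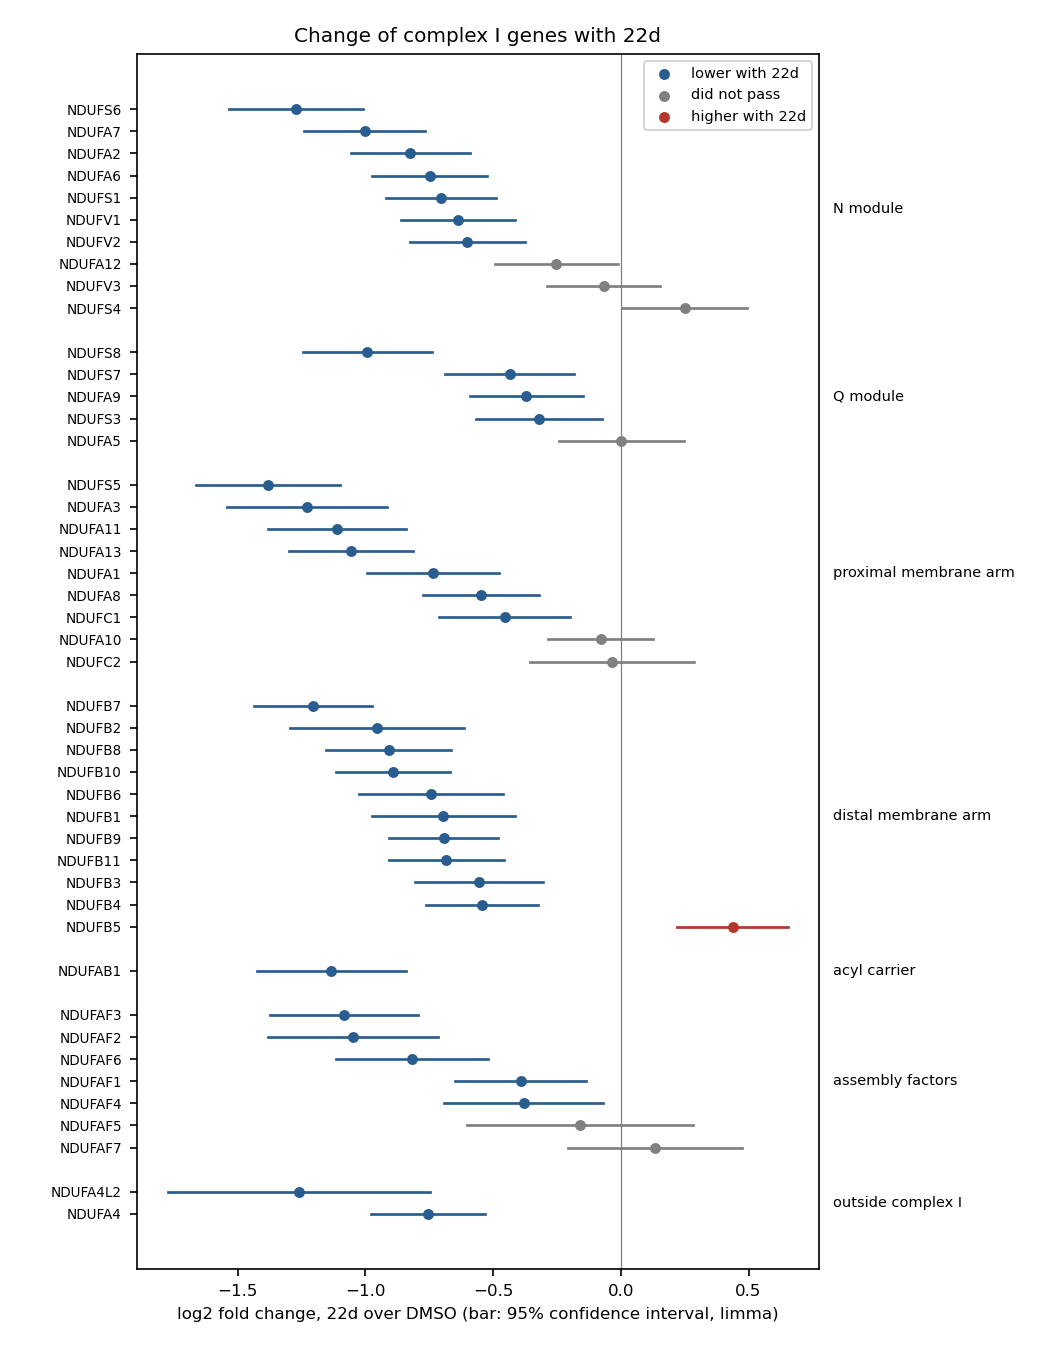
Log2 fold change of complex I genes, 22d over DMSO, with its unadjusted 95% confidence interval from limma, grouped by module. Most intervals lie left of 0, NDUFB5 at 0.44 lies right of it, and the subunits that did not pass run from NDUFA12 at -0.25 to NDUFS4 at 0.25.

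The fall was also visible as a share of each library. Reads in the 37 subunit genes made up 0.310, 0.337 and 0.336% of all reads in genes with 22d, against 0.470, 0.461 and 0.462% with DMSO. For the 7 NDUFAF genes the shares were 0.0147, 0.0165 and 0.0163% with 22d and 0.0242, 0.0237 and 0.0236% with DMSO. Neither set of shares overlapped between groups. In RNA from whole cultures, less RNA of a gene in each cell and fewer cells that express it cannot be told apart.

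Each core subunit described here was lower. In the N module, NDUFV1 binds the flavin that takes electrons from NADH. It had 4865, 5092 and 5447 normalized counts with 22d and 8275, 8441 and 7266 with DMSO (5135 ± 293 against 7994 ± 636, SD, n = 3 each). Its log2 fold change was -0.64 (SE 0.10, adjusted p = 0.000166). NDUFV2 and NDUFS1, which carry iron-sulphur clusters along the electron path, fell by similar amounts. NDUFV2 had 1282, 1407 and 1251 with 22d and 2047, 2042 and 1882 with DMSO (log2 -0.60, SE 0.10, adjusted p = 0.000288). NDUFS1, the largest core subunit, had 1412, 1404 and 1347 with 22d and 2345, 2152 and 2283 with DMSO (log2 -0.70, SE 0.10, adjusted p = 5.93e-05). In each of the 3 genes the groups stood clear of each other.

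The accessory subunits of the N module moved less evenly. NDUFS6, a zinc-binding subunit needed late in assembly, was among the most lowered subunits. It had 1918, 2516 and 2434 normalized counts with 22d and 5689.8, 5803 and 5001 with DMSO, so that the 22d mean was 41.6% of the DMSO mean (2289 ± 324 against 5498 ± 434, SD, n = 3 each). The log2 fold change was -1.27 (SE 0.12, adjusted p = 2.27e-06). NDUFA7, at 49.9% of its DMSO mean, NDUFA2 (log2 -0.82) and NDUFA6 (-0.75) were also lower. NDUFA6 belongs to the LYR family, whose members in complex I bind the acyl carrier protein; it was listed here with the N module, but its placement is not certain, since it can also be counted with the Q module.

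NDUFA12, NDUFV3 and NDUFS4 did not pass. The 95% intervals in this text are per gene and not adjusted over the genes tested. Such an interval can therefore exclude no change in a gene that did not pass. NDUFA12 had 1220.0, 1501 and 1419.5 normalized counts with 22d and 1619, 1594 and 1701 with DMSO, and its log2 difference was -0.25 (95% interval -0.49 to -0.01, adjusted p = 0.0672). NDUFV3, a small subunit at the tip of the arm, had 1209, 1259 and 1269 with 22d and 1364, 1288 and 1263 with DMSO (log2 -0.07, 95% interval -0.29 to 0.15, adjusted p = 0.594). NDUFS4 is a subunit whose loss is a known cause of Leigh syndrome. It had 627, 629.7 and 590.1 with 22d and 519, 521 and 511 with DMSO (log2 0.25, 95% interval 0.01 to 0.50, adjusted p = 0.0743). The NDUFS4 values were higher in all 3 22d libraries than in any DMSO library. NDUFS4 passed as higher in edgeR on the recovered reads (log2 0.28, adjusted p = 0.0453) and with scaling by library totals (0.47, adjusted p = 0.00449).

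In the Q module NDUFS8, NDUFS7, NDUFA9 and NDUFS3 were lower and NDUFA5 did not pass. NDUFS8, which carries iron-sulphur clusters next to the ubiquinone site, stood apart from the rest. It had 1177, 1519.5 and 1459 normalized counts with 22d and 2894, 2726 and 2603 with DMSO (1385 ± 183 against 2741 ± 146, SD, n = 3 each), and its log2 fold change was -0.99 (SE 0.12, adjusted p = 1.37e-05). NDUFS7 holds the last iron-sulphur cluster before ubiquinone. Its values were 5243, 5004 and 5589 with 22d and 6746, 8403 and 6395 with DMSO (log2 -0.44, SE 0.12, adjusted p = 0.00607). The NDUFS7 call was lost with scaling by library totals (log2 -0.21, adjusted p = 0.0792) and after quantile normalization (-0.13, 0.26). NDUFA9, an accessory subunit with a dehydrogenase-like fold, was lower by a similar amount (-0.37), a call that was lost with library totals (adjusted p = 0.247).

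NDUFS3, a core subunit and an early building block of the arm, changed less. It had 2035, 1675 and 1618 normalized counts with 22d and 2364, 2125 and 2137 with DMSO (log2 -0.32, SE 0.11, adjusted p = 0.0288). The groups did not overlap. The call was lost without 22d replicate 2 (adjusted p = 0.101), 22d replicate 3 (0.121) or DMSO replicate 1 (0.122), with scaling by library totals (0.485) and after quantile normalization (0.443).

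NDUFA5, an accessory subunit of the Q module, had level counts in both groups: 680.4, 677 and 698 with 22d and 683, 639 and 734 with DMSO. Its log2 difference was 0.00 (95% interval -0.24 to 0.25, adjusted p = 0.988). The annotation holds 12 pseudogenes named after NDUFA5, and 17 of the 37 subunits have at least 1 such copy, so reads could be divided between near-identical sequences in the authors' counting.

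**Figure D2:**
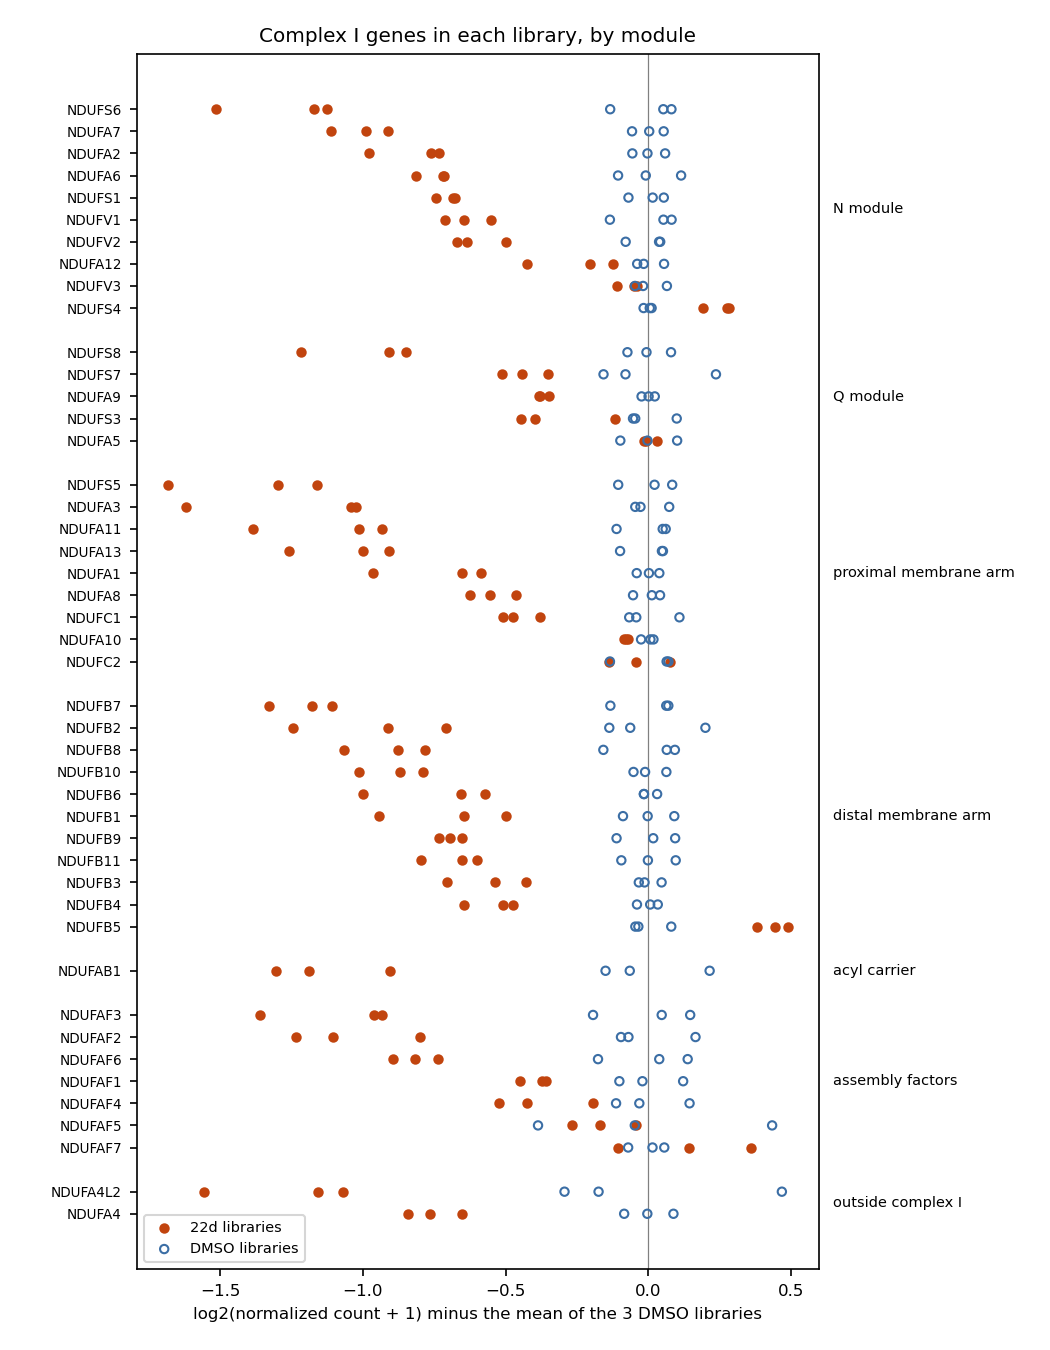
Complex I genes in each library, as log2(normalized count + 1) minus the mean of the 3 DMSO libraries; filled points are 22d libraries and open points DMSO libraries, by module. The 22d points lie left of the DMSO points for most subunits and right of them for NDUFB5 and NDUFS4.

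In the proximal part of the membrane arm 7 of 9 genes were lower, with a median of -0.73. NDUFS5, a small subunit on the intermembrane side, had the largest fall of all subunits. It had 2059.8, 2965 and 2694 normalized counts with 22d and 6723, 7017 and 6155 with DMSO, which left 38.8% of the DMSO mean (2573 ± 465 against 6632 ± 438, SD, n = 3 each). The log2 fold change was -1.38 (SE 0.13, adjusted p = 2.15e-06). NDUFS5 lies on chromosome 1 at 39026318 to 39034636, plus strand (GRCh38). Per kilobase of transcript, its DMSO mean of 12102 was the highest of the subunits, and its 22d mean was 4695.

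NDUFA3, a subunit with a single membrane span, had 959, 1432 and 1449 normalized counts with 22d and 2856, 3102 and 2893 with DMSO (1279.9 ± 278 against 2950.3 ± 132, SD, n = 3 each). Its log2 fold change was -1.23 (SE 0.15, adjusted p = 1.39e-05). NDUFA11, a membrane subunit linked to supercomplex contacts, and NDUFA13, also known as GRIM-19 and studied as a partner of STAT3, were each lower by about as much. NDUFA11 had 2129, 2914 and 2758 with 22d and 5807, 5765 and 5154 with DMSO (log2 -1.11). NDUFA13 had 3992, 5098 and 4779 with 22d and 9888, 9912 and 8933 with DMSO (log2 -1.06). NDUFA1 (-0.73), NDUFA8 (-0.55) and NDUFC1 (-0.45) completed the lower genes; the NDUFC1 call was lost with library totals (adjusted p = 0.143).

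NDUFA10 and NDUFC2 did not pass. NDUFA10, a subunit with a nucleoside-kinase fold, had 2298, 2278 and 2285 normalized counts with 22d and 2373, 2427 and 2445 with DMSO. Its groups did not overlap, but the log2 difference was only -0.08 (95% interval -0.28 to 0.13, adjusted p = 0.497). NDUFC2 had 189, 219 and 201 with 22d and 217, 189 and 218 with DMSO (log2 -0.04, 95% interval -0.36 to 0.28, adjusted p = 0.848). It had the lowest level per kilobase of the subunits, 80.6 with 22d and 82.7 with DMSO. NDUFC2 shares exons with the readthrough gene NDUFC2-KCTD14, and 18.1% of the exonic bases of NDUFC2 lie in other genes. NDUFC2-KCTD14 had no read in any library, but 100% of its exonic bases lie in NDUFC2 or KCTD14. How the counting treated shared bases is not given, so the lack of reads does not show that this RNA is absent.

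In the distal part of the membrane arm 10 of 11 genes were lower and 1 was higher, with a median of -0.70. NDUFB7, another small subunit on the intermembrane side, fell most. It had 1526, 1696 and 1780.5 normalized counts with 22d and 4009, 4029 and 3500.4 with DMSO (1667 ± 129.6 against 3846 ± 299.7, SD, n = 3 each), and its log2 fold change was -1.21 (SE 0.11, adjusted p = 1.34e-06). NDUFB2 (-0.95), NDUFB8 (-0.91) and NDUFB10 (-0.89) followed. The other lower genes lay between -0.74 for NDUFB6 and -0.54 for NDUFB4, with NDUFB9, the other LYR protein of the enzyme, at -0.69.

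NDUFB5, an accessory subunit with a single membrane span, went the other way. It had 2074, 2236 and 2164 normalized counts with 22d and 1554, 1543 and 1684 with DMSO (2158 ± 80.9 against 1594 ± 78.2, SD, n = 3 each). Every 22d library lay above every DMSO library, and the 22d mean was 135% of the DMSO mean. The log2 fold change was 0.44 (SE 0.10, adjusted p = 0.00228), and it lay between 0.41 and 0.66 under the 16 alternative settings. NDUFB5 lies on chromosome 3 at 179604690 to 179627647, plus strand (GRCh38), and none of its exonic bases lie in another annotated gene.

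**Figure D3:**
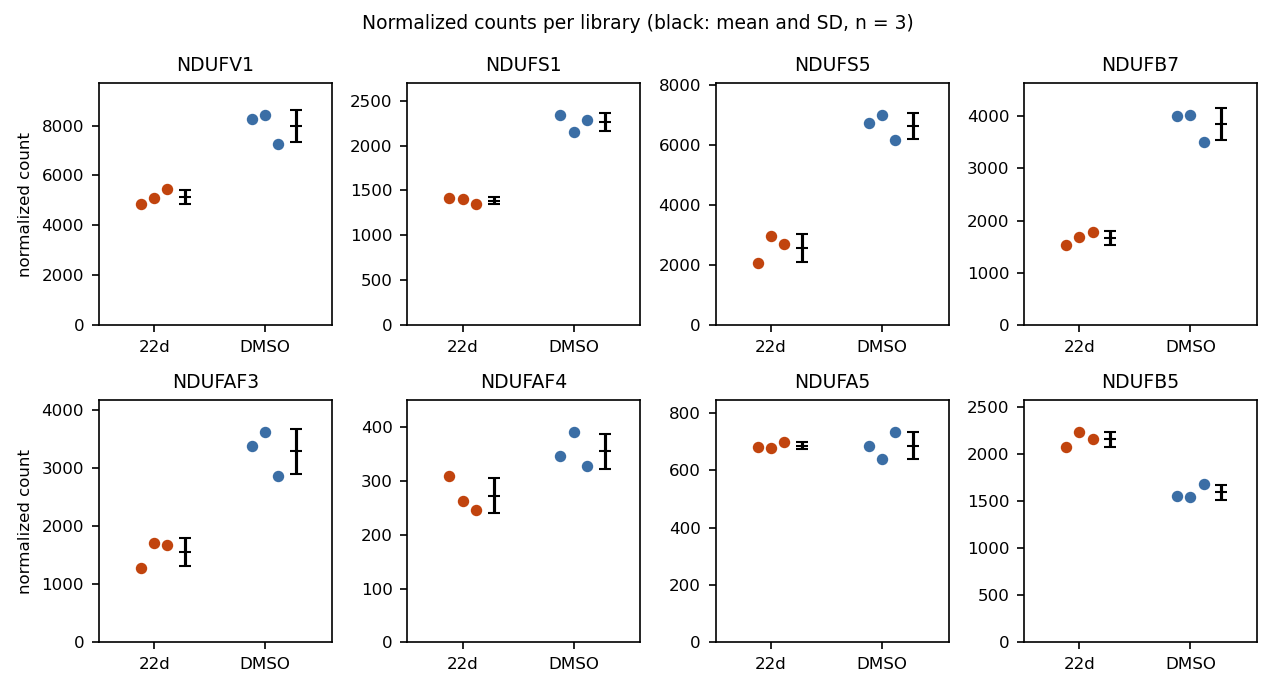
Normalized counts of selected complex I genes in each library, 22d left of DMSO; black marks are the mean and SD of 3 libraries. NDUFS5 and NDUFB7 fell to under 50% of the DMSO mean, NDUFA5 was level, and NDUFB5 was higher in all 3 22d libraries.

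NDUFAB1, the mitochondrial acyl carrier protein, sits in both arms of the enzyme and also serves fatty acid and iron-sulphur cluster synthesis. It had 705, 932 and 765 normalized counts with 22d and 2024, 1572 and 1667 with DMSO (800.5 ± 118 against 1755 ± 238, SD, n = 3 each). The log2 fold change was -1.13 (SE 0.13, adjusted p = 1.41e-05), and its LYR partners NDUFA6 and NDUFB9 were lower as given above. The 4 subunits with CHCH folds, which are oxidised on import into the intermembrane space, were all lower: NDUFS5, NDUFB7, NDUFB10 and NDUFA8. CHCHD4, the oxidoreductase that imports such proteins, was lower as well, at 295 ± 14.2 with 22d and 616 ± 50.2 with DMSO (log2 -1.06, SE 0.13, adjusted p = 1.42e-05).

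Within the 22d group, replicate 1 tended to be the lowest. It was the lowest of the 3 22d libraries for 26 of 37 subunits, or 70.3%, against 39.4% of all genes tested. The median log2 distance from the DMSO mean was -0.73, -0.64 and -0.65 in 22d replicates 1 to 3, with wider gaps in the proximal (-0.96, -0.59 and -0.65) and distal membrane arm (-0.94, -0.65 and -0.66) and the opposite order in the Q module. Without that library the median over the subunits was -0.62 and 30 subunits were still called lower.

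Of the 7 genes listed under NDUFAF symbols, NDUFAF3 and NDUFAF2 fell most. NDUFAF3 works with NDUFAF4 on the early Q module. It had 1278, 1718 and 1683 normalized counts with 22d and 3387, 3629 and 2866 with DMSO (1559.8 ± 245 against 3294 ± 389.8, SD, n = 3 each), and its log2 fold change was -1.08 (SE 0.13, adjusted p = 1.94e-05). Its partner NDUFAF4 changed less, with 309, 263 and 246 with 22d and 346, 391 and 327 with DMSO (log2 -0.38, SE 0.14, adjusted p = 0.036). The NDUFAF4 call was lost without 22d replicate 2 (adjusted p = 0.0971), 22d replicate 3 (0.136), DMSO replicate 1 (0.0724) or DMSO replicate 2 (0.126), without the filter on low values (0.0509) and with scaling by library totals (0.37).

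NDUFAF2 is a paralogue of NDUFA12 that holds its place until late assembly. It had 176, 193 and 238 normalized counts with 22d and 396, 389 and 466 with DMSO (202 ± 32.3 against 417 ± 42.7, SD, n = 3 each), and its log2 fold change was -1.05 (SE 0.15, adjusted p = 7.95e-05), where NDUFA12 itself did not pass. NDUFAF6, a protein related to phytoene synthases that is needed for the membrane arm, had 226, 252 and 238 with 22d and 463, 372 and 432 with DMSO (log2 -0.82, SE 0.14, adjusted p = 0.000239). NDUFAF1, a member of the assembly complex for the proximal membrane arm, had 483, 514 and 509.6 with 22d and 649.8, 614 and 717 with DMSO (log2 -0.39, SE 0.12, adjusted p = 0.0121). The groups did not overlap in any of these 3 genes. With scaling by library totals NDUFAF1 did not pass (adjusted p = 0.278), which left 3 NDUFAF genes called lower.

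The 2 methyltransferase-like factors did not pass. NDUFAF5, which modifies NDUFS7, had 149, 127 and 136 normalized counts with 22d and 207, 117 and 148 with DMSO (log2 -0.16, 95% interval -0.60 to 0.28, adjusted p = 0.52). NDUFAF7, a protein methyltransferase, had 266, 228 and 192 with 22d and 197, 209 and 215 with DMSO (log2 0.13, 95% interval -0.21 to 0.47, adjusted p = 0.489). Both had overlapping groups, and the interval of NDUFAF5 includes the change called for NDUFAF1 while that of NDUFAF7 does not. C17orf89, the older symbol of NDUFAF8, the partner of NDUFAF5, was lower. It had 618, 1072 and 887 with 22d and 2431, 2253 and 2189.5 with DMSO (log2 -1.45, SE 0.16, adjusted p = 9.42e-06).

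C17orf89 was 1 of 14 other complex I assembly factors, of which 10 were lower, none was higher and 4 did not pass, with a median of -0.60. ACAD9, which shares an assembly complex with NDUFAF1, had 508, 822 and 723 normalized counts with 22d and 2224, 2169.9 and 1904 with DMSO (log2 -1.64, SE 0.16, adjusted p = 2.36e-06). TMEM186 (-0.79) and COA1 (-0.73) of that complex were lower, while ECSIT (1497 ± 167 with 22d and 1725 ± 166 with DMSO) and TMEM126B (469.9 ± 46.8 with 22d and 414 ± 7.20 with DMSO) did not pass. FOXRED1, an oxidoreductase needed for assembly, was at 498 ± 67.8 with 22d and 1523 ± 123 with DMSO (log2 -1.62, SE 0.13, adjusted p = 5.35e-07). The smallest called change was that of ATP5SL, now named DMAC2, at -0.34. TIMMDC1, a membrane-arm factor, and NUBPL, a carrier of iron-sulphur clusters to complex I, did not pass.

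The genes named NDUF that lie outside complex I were both lower. NDUFA4 is now counted as a subunit of cytochrome c oxidase. It had 1790.0, 2043 and 1890.5 normalized counts with 22d and 3415, 3205 and 3029.8 with DMSO (1908 ± 128 against 3217 ± 193, SD, n = 3 each), and its log2 fold change was -0.75 (SE 0.10, adjusted p = 4.51e-05). Its paralogue NDUFA4L2, known as a target of hypoxia signalling, was expressed at a low level, with 44.0, 58.4 and 62.1 with 22d and 107, 182 and 116 with DMSO (log2 -1.26, SE 0.24, adjusted p = 0.000566). None of the 3 antisense RNAs passed. NDUFA6-AS1 had 89.9, 81.2 and 89.8 with 22d and 42.1, 63.1 and 75.7 with DMSO (log2 0.56, SE 0.24, adjusted p = 0.0571), NDUFV2-AS1 differed by -0.11 and NDUFB2-AS1 by 0.00. The strand setting of the counting is not given in the sources used here, so reads of overlapping genes on opposite strands cannot be told apart. In 13 subunits at least 10% of the exonic bases lie in other annotated genes, led by NDUFA7 at 75.9%. Of the other 24 subunits 18 were lower and 1 was higher, with a median of -0.62.

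The other respiratory complexes moved the same way. Of 39 tested subunits of complexes II to V, 34 were lower, none was higher and 5 did not pass, with a median of -0.64 beside -0.69 for complex I. This list includes NDUFA4. The called changes ran from ATP5G1, a subunit of the rotating ring of ATP synthase, at -1.84 to ATP5O, a subunit of its stalk, at -0.29. Of 32 tested assembly factors of those complexes 16 were lower, 1 was higher and 15 did not pass, with a median of -0.36. UQCC2, a factor for complex III, was lowest at -1.49 and TTC19, another complex III factor, was the higher one at 0.36.

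**Figure D4:**
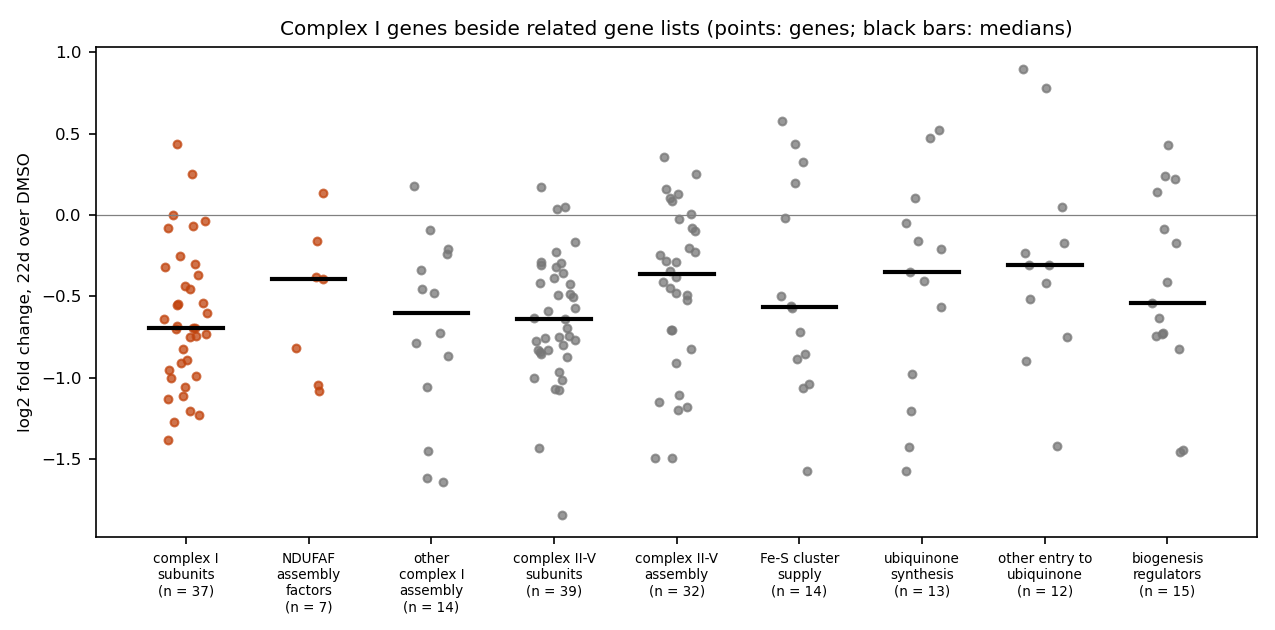
Log2 fold change of each tested gene, 22d over DMSO, for complex I subunits, assembly factors and related gene lists. Points are genes and black bars are medians. The medians of the complex I subunits, -0.69, and of the complex II to V subunits, -0.64, lie close together. All genes tested, which are not drawn, have a median of 0.01.

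Genes that supply complex I with its cofactors were mixed. Of 14 genes of iron-sulphur cluster supply 9 were lower, 3 were higher and 2 did not pass, with a median of -0.57. BOLA3, which acts late in cluster delivery, averaged 239.7 ± 58.3 with 22d and 705 ± 77.5 with DMSO (log2 -1.58, SE 0.18, adjusted p = 8.09e-06). The higher genes were FDXR, the ferredoxin reductase (2768 ± 582 with 22d and 1832 ± 224 with DMSO, log2 0.58), NFU1, a late carrier (244 ± 36.3 with 22d and 179 ± 9.56 with DMSO, log2 0.44), and ISCU, the scaffold on which clusters are built (1196 ± 29.5 with 22d and 955 ± 55.3 with DMSO, log2 0.33).

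Of 13 genes of ubiquinone synthesis 7 were lower, 2 were higher and 4 did not pass, with a median of -0.35. COQ3, a methyltransferase of the pathway, was lowest at -1.57, and COQ10B, a ubiquinone-binding protein, was highest at 0.52. Other enzymes that feed electrons to ubiquinone gave 6 lower, 1 higher and 5 not passing among 12, with a median of -0.31. This list shares SDHA, SDHB and SDHC, all lower, and SDHD, which did not pass, with the list of complex II to V subunits. DHODH, the pyrimidine synthesis enzyme, had 295, 415 and 409 with 22d and 990.0, 986 and 985 with DMSO (log2 -1.42, SE 0.14, adjusted p = 3.36e-06). SQRDL, the sulphide oxidase now named SQOR, was higher, with 1889.7, 1488 and 1604 with 22d and 929, 879 and 1096 with DMSO (log2 0.78, SE 0.13, adjusted p = 0.000173).

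Of 15 tested regulators of mitochondrial gene expression and biogenesis 9 were lower, none was higher and 6 did not pass, with a median of -0.54. The mitochondrial helicase C10orf2, now named TWNK, was lowest at -1.46, and POLG, the mitochondrial DNA polymerase, had the smallest called change at -0.41. PPRC1, a coactivator of the PGC-1 family, had 940.4, 1227 and 1263 normalized counts with 22d and 3142, 3319 and 2831 with DMSO (log2 -1.45). PPARGC1B of the same family did not pass (log2 -0.09, adjusted p = 0.615), and PPARGC1A had too few counts to be tested. NRF1, a factor known to bind promoters of respiratory genes, was lower at 439 ± 33.1 with 22d and 737 ± 61.2 with DMSO (log2 -0.75, SE 0.12, adjusted p = 0.000199). GABPA, an ETS factor known for the same role, was at 479 ± 53.3 with 22d and 413 ± 62.2 with DMSO, and YY1 at 2888 ± 169 with 22d and 3247 ± 90.5 with DMSO, and neither passed. GABPB1, which was in the same list, was lower at 190 ± 10.6 with 22d and 316 ± 40.5 with DMSO (log2 -0.72, SE 0.15, adjusted p = 0.00107).

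Because NRF1, ETS factors and YY1 are the textbook regulators of these genes, the promoters of the members were searched for their motifs. RefSeq windows (GRCh38.p14) from 250 bases before to 50 after the start were at hand for 32 subunits and 6 NDUFAF genes. Many windows held annotated exon bases, and some lay away from the annotated gene start used above. The NDUFA5 window lay at 123601652 to 123601901 on chromosome 7, while that minus-strand gene was annotated to start at 123558255. Which starts these cells use was not tested. Both strands were searched for GCGCA and GCGC with any 1 base between them (NRF1), CCGGAAG (ETS), AAGATGGC (YY1), TGACGTCA (the cyclic AMP response element) and CACGTG (the E-box), and no match of one motif overlapped a match of another. At least 1 of the first 3 was found in 15 of 32 subunit promoters, or 46.9%, against 32.4% of 9708 promoters of tested genes and 17.9% of all 27305 promoters. The YY1 letters were in 18.8% of the subunit promoters, against 5.55% of promoters of tested genes and 3.03% of all. All of these subunit matches lay after the start, between base 11 (NDUFA9) and base 26 (NDUFA6), and none lay before it. They also count towards the 46.9%. The NRF1 letters were in 18.8%, against 11.8% and 6.29%. The ETS letters were in 15.6%, against 19.6% and 10.7%, the cyclic AMP letters in 6.25%, against 3.23% and 1.98%, and the E-box in 9.38%, against 10.2% and 7.43%. Among the 6 NDUFAF promoters the NRF1, ETS and E-box letters occurred in 1 each. A match describes the letters only and is not shown to be a binding site. NDUFS6, NDUFAB1, NDUFS8, NDUFAF3 and NDUFAF2 were lower and held no match. NDUFA12, NDUFS4, NDUFA10 and NDUFAF5 did not pass and held a match. Whether matches go with the calls was not tested.

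The 250 bases before the start are shown for 2 subunits and 1 assembly factor that were lower, 5′ to 3′ on the strand of the gene with matches in capitals: an ETS match in NDUFB7 (chr19:14572067-14572316, minus strand), an E-box and an NRF1 match in NDUFA11 (chr19:5903791-5904040, minus strand) and an ETS match in NDUFAF4 (chr6:96897892-96898141, minus strand).
NDUFB7: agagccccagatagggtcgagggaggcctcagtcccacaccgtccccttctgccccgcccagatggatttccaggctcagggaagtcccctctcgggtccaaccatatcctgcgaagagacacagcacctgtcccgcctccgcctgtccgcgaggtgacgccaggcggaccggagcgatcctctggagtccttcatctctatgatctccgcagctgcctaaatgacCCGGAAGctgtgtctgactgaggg
NDUFA11: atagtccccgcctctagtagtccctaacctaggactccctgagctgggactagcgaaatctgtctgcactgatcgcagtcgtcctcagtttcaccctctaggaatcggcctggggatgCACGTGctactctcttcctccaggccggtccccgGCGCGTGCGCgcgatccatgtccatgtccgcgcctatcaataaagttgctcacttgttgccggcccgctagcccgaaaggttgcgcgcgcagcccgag
NDUFAF4: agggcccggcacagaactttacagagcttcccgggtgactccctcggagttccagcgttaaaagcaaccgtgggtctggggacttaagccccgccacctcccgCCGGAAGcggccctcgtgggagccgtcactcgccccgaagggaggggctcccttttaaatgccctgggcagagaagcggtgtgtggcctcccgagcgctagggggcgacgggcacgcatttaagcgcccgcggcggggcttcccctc
The NRF1 match in NDUFA11 is to the opposite strand, so its capitals are the reverse complement of the searched letters. All genes shown held a match and no annotated exon bases in the bases shown. NDUFC1 and NDUFAF1 were lower too and also had no exon bases there, but their windows held no match.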

How the data were processed

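The submitters' processing notes name STAR, HTSeq, DESeq2, FastQC and cutadapt, and the build hg38; versions, annotation release, strand setting and filters are not given in the sources used here. Per the labels' protocols, a NEBNext Ultra RNA kit was used on 1 µg of total RNA. Per the file headers, the deposited table gives a normalized count (signal) per library, the authors' log2 fold change and its standard error on the log2 scale, a test score, and a p-value with its adjusted p-value. The values in every library were whole reads divided by 1 size factor: 100% came out whole within 0.001 of a read.

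Here limma 3.58.1 (R 4.3.3) was fitted with a mean-variance trend to log2(normalized count + 1) for 13297 genes whose mean over the 6 libraries was 10 or more, without a block. P-values were adjusted by Benjamini-Hochberg over all of them, and genes under 0.05 were called. The added 1 shrinks changes of low genes. The test was checked on simulated data. Alternatives were pseudocounts of 0.5 and 5, no filter, a mean of at least 50, a replicate block, library totals, quantile normalization, edgeR 4.0.16, DESeq2 1.42.0 on recovered reads, the authors' table, and leaving out each library. On the recovered reads, edgeR called 7723 genes. Replicate numbers did not pair the libraries.

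Coordinates, lengths and overlaps came from GENCODE release 29 (GRCh38), which matched 49 of 50 members by symbol. Promoters came from RefSeq. Full values were given for core subunits, NDUFAF genes, NDUFA4, NDUFA4L2 and the 5 lowest and 5 highest subunits, and for other lists the lowest and highest called gene; further genes were named after their values were seen, and 1 member and 1 marker are not reported here. The members, modules and lists were chosen with earlier results of these data known.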

Additional observations from a re-analysis of the deposited data

How the results depend on the processing

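Of 400 combinations of 25 named genes with 16 alternatives, 375 kept direction and side of the threshold, 15 no longer passed it, 2 newly passed it (NDUFS4, given above) and 8 changed sign. Scaling by library totals moved the median of all genes to 0.22 and gave 8044 calls, 65.6% of them higher, against 49.0% of 7718. Under it 25 subunits were lower and 2 higher (also 2 higher in edgeR), 3 NDUFAF genes were lower, and the medians were -0.47 (subunits) and -0.17 (NDUFAF genes), or -0.70 and -0.40 relative to the shift. Quantile normalization gave 27 lower subunits and medians of -0.50 and -0.45. Leaving out 1 library gave medians of -0.71 to -0.62 for subunits and -0.47 to -0.40 for NDUFAF genes, with 28 to 30 and 4 to 5 called lower.

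The log2 differences that changed sign were those of genes near 0. With library totals, NDUFAF5 came to 0.0591, NDUFV3 to 0.15 and NDUFC2 to 0.18. Quantile normalization gave NDUFV3 0.0661. Leaving out 1 library gave NDUFAF5 -0.3536 to 0.0565 (above 0 without DMSO replicate 1), NDUFC2 -0.1035 to 0.0152 (above 0 without 22d replicate 1) and NDUFA5 -0.0467 to 0.0528 (below 0 without 22d replicate 3 or DMSO replicate 2). Library totals also ended the calls of NDUFS7 (adjusted p = 0.0792), NDUFC1 (0.143) and NDUFA9 (0.247), and quantile normalization that of NDUFS7 (0.26). The cause was not tested.

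Libraries with the same number did not deviate together (correlations -0.03, -0.02 and -0.10 against -0.11 to 0.17 for other pairings). With the replicate block, 7419 genes were called, with 30 subunits and 4 NDUFAF genes lower; NDUFAF4 had an adjusted p of 0.0567. Low counts limit precision: NDUFAF5, with means of 137 and 157 normalized counts with 22d and DMSO, had a 95% interval of -0.60 to 0.28.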

Other observations

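Across the 37 subunits, the log2 fold change was related to features of the transcript. As a description, its correlation with the GC content of the principal transcript was -0.53 (Spearman -0.53), with transcript length 0.37 (0.41), and with mean level per kilobase -0.50 (-0.51). Over 11709 tested genes with a protein-coding transcript these were -0.14 (-0.18), 0.16 (0.18) and -0.29 (-0.32). The points share the same 6 libraries, and genes are not independent replicates. The 19 subunits with the shorter transcripts (528 to 958 bases) had a median of -0.73, against -0.36 over 425 tested genes in that range. The 18 longer ones (963 to 11819 bases) had a median of -0.55, against 0.00 over 11029 genes.

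For 9 members, a tested protein-coding gene on the opposite strand started within 1000 bases upstream and pointed away. Opposite-strand genes that start inside the member were not counted. This set was looked at after the values were seen. Among the 6 members called lower, 1 neighbour was lower, 2 were higher and 3 did not pass. Over all genes tested, 29.6% were lower and 28.5% higher, so these few counts do not set the neighbours apart. Whether neighbours change with the members was not tested. NDUFS6 fell together with MRPL36, a mitochondrial ribosomal protein whose start lies 34 bases away (log2 -1.02, adjusted p = 1.33e-05). The starts of NDUFA3 and OSCAR, a myeloid receptor, lie 36 bases apart, and OSCAR was higher, with 1846, 2294 and 2332 normalized counts with 22d and 1123, 1363 and 1170.5 with DMSO (log2 0.82, adjusted p = 9.7e-05). VMAC, 852 bases from NDUFA11, was higher too (log2 1.06, adjusted p = 2.8e-05).

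The pair with NDUFB5 ran the opposite way. MRPL47, another mitochondrial ribosomal protein, starts 36 bases from NDUFB5 and had 381, 329 and 303 normalized counts with 22d and 438, 384 and 496 with DMSO (log2 -0.38, adjusted p = 0.039). The gene beside NDUFV3, WDR4, which takes part in tRNA methylation, had 275, 491 and 492 with 22d and 1679, 1764 and 1381 with DMSO (log2 -1.98, adjusted p = 3.15e-06), while NDUFV3 did not pass.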
